A study of Homo sapiens with 6 samples.

Results

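Receptors for GABA, glycine, glutamate, acetylcholine, serotonin, dopamine and noradrenaline, together with the β-alanine receptor MRGPRD, were followed in the human small cell lung cancer line DMS114. Cells had been exposed for 48 h to 2.5 mM β-alanine (3 libraries) or to vehicle of equal volume (3 control libraries), and polyadenylated RNA was sequenced. The series is titled as a study of how STMN2 and β-alanine bear on invasion toward neurons. Members were the rows of the count table whose gene symbol follows the naming pattern of these receptor families. This gave 97 of 36458 symbols, with membership set by name and not by a measured value. Nothing in the labels ties the libraries to separate cultures. The p-values therefore reflect spread among these 6 samples alone, and that spread may be technical.

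Neurotransmitter receptors fall into ligand-gated ion channels, built from several subunits, and G protein-coupled receptors. GABA-A and glycine receptors pass chloride, whereas nicotinic acetylcholine receptors and the ionotropic glutamate receptors pass cations. β-alanine is itself an agonist of glycine receptors and of MRGPRD, a G protein-coupled receptor of sensory neurons. In small cell lung cancer, a tumour with neuroendocrine features, nicotinic, GABA and glutamate receptors have all been described outside the nervous system.

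Library totals ran from 14433801 to 32909568 counts in β-alanine and from 18814876 to 22072654 counts in control libraries, so that 1 count was worth 0.0300 to 0.0696 CPM (counts per 1e6 of the scaled total). β-alanine library 1 had the smallest total and stood apart. On the first principal component of log2 CPM it lay at -9.14, against -23.5 and -23.6 for β-alanine libraries 2 and 3 and 16.7 to 20.02 for the controls, and on the second at 27.2, against -9.13 to 1.26 for the other libraries. Of 8 marker genes for small cell lung cancer types, 5 were measured. SYP, a synaptic vesicle protein, averaged 86.3 CPM in β-alanine and 61.0 CPM in control libraries, and rose, while NCAM1, a cell adhesion molecule, averaged 1.48 and 2.32 CPM and fell. CHGA rose and NEUROD1 and YAP1 were not called. YAP1 averaged 129 and 124 CPM, so it and SYP made up most of the list's sum. INSM1, a factor that marks the neuroendocrine type, had only 28 counts over all 6 libraries. Summed, the list stood at 234.7 to 255.7 CPM in β-alanine and 209.1 to 211.5 CPM in control libraries. A list of 6 neuron markers summed to 53.2 to 55.0 and 51.8 to 54.9 CPM, but its genes did not move alike. SNAP25 averaged 4.91 CPM in β-alanine and 2.25 CPM in control libraries and rose (log2 change 1.17, edgeR adjusted p = 5.46e-05). RBFOX3, the highest of that list at 31.8 and 34.7 CPM, and the other measured neuron markers were not called. Among other cell types, 4 of 5 fibroblast markers were measured, with COL3A1 the highest, and the list summed to 880.2 to 980.3 CPM in β-alanine and 1115 to 1158 CPM in control libraries. Of 4 astrocyte markers 1 was measured, ALDH1L1, and the list summed to 0.450 to 0.557 CPM and 1.00 to 1.14 CPM. The part of these differences in the receptor results was not tested. All 4 immune genes in the table and all 4 endothelial genes stayed under the low-count filter.

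Of the 97 receptor genes, 40 passed the low-count filter and are called measured here, 51 had at least 1 count without passing it, and 6 had no count in any library. Measured genes held 57 to 15165 counts over the 6 libraries. The 51 trace genes held 1 to 73, and 34 of them held 10 or fewer. The 6 without a count were CHRNA2, CHRNA6, GRM5, HTR1F, HTR3A and HTR3C, where a count of 0 allows up to 0.0899 to 0.209 CPM per library, counting error only. By family, the measured genes were 7 of 17 GABA-A, 2 of 2 GABA-B, 1 of 4 glycine, 5 of 7 NMDA, 1 of 4 AMPA, 3 of 5 kainate, 1 of 2 delta and 2 of 8 metabotropic glutamate genes. They were also 8 of 16 nicotinic, 2 of 4 muscarinic, 5 of 9 adrenergic, 2 of 14 serotonin and 1 of 4 dopamine receptor genes. These family totals count only genes with a row in the count table, which had none for CHRM1, DRD3, GABRA4, GABRP, HTR4 or GLRA1. Summed over all 97, the receptors made up 614, 611 and 629 CPM in β-alanine libraries and 582, 583 and 613 CPM in control libraries.

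**Figure D1:**
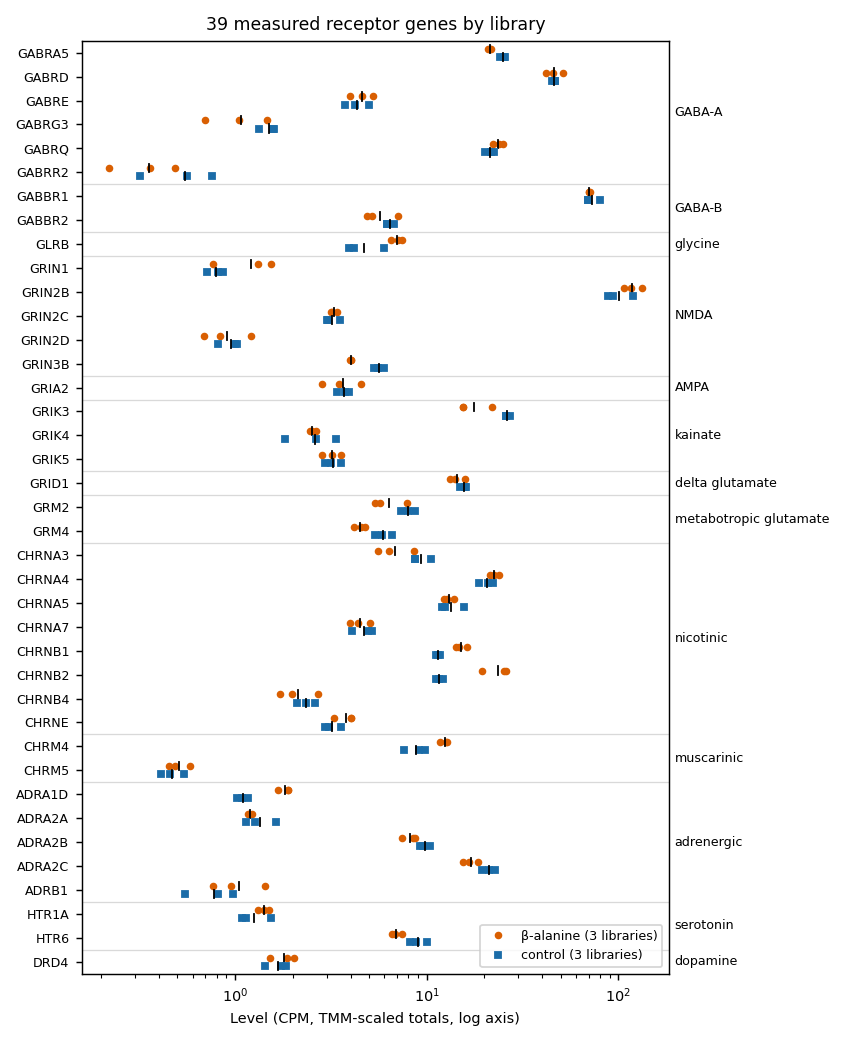
Level of 39 measured receptor genes in CPM (log axis) in the 3 β-alanine libraries (circles) and the 3 control libraries (squares), with black ticks at the group means, grouped by receptor family. GRIN2B and GABBR1 were the most abundant of them in CPM, and most genes lay below 25 CPM in either group.

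Per kilobase of exon, the scale on which genes can be compared, ADRA2C, GABBR1, GABRD and CHRM4 were among the highest, and their order differed between the groups. ADRA2C, an inhibitory noradrenaline receptor, had 7.76 CPM per kb in β-alanine and 9.69 CPM per kb in control libraries. GABBR1, the ligand-binding subunit of the GABA-B receptor, had 8.32 and 8.63 CPM per kb, and GABRD, the delta subunit of extrasynaptic GABA-A receptors, 8.32 and 8.33 CPM per kb. CHRM4, a muscarinic receptor, had 8.19 and 5.84 CPM per kb, GABRA5 5.13 and 6.03 CPM per kb, and HTR6 3.50 and 4.55 CPM per kb. Obligate partners differed in level. GABBR2, with which GABBR1 pairs, had 0.750 and 0.840 CPM per kb. GRIN1, the subunit that every NMDA receptor needs, had 0.179 CPM per kb in β-alanine and 0.119 CPM per kb in control libraries, against 3.83 and 3.24 CPM per kb for GRIN2B. These lengths are the summed exons of all annotated transcripts, so a gene with many long isoforms is placed too low.

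Among the 40 measured genes, 6 rose and 8 fell with β-alanine in edgeR's quasi-likelihood test, with a threshold of 0.05 on the p-value adjusted over all genes. This was 35% of them, set beside 27.9% of all 17331 genes tested, with 14.1% rising and 13.8% falling. Within the middle range of the members' own abundance, 22.2% of genes were called. The groups did not overlap for 14 members, again 35%, against 39.1% of all genes tested. The median log2 change was -0.02 over the members, against -0.0032 over all genes, and the median size of the change, sign aside, was 0.22 against 0.15. In bulk RNA, fewer cells with a transcript and less of it per cell cannot be told apart. The calls fell on both receptor types, with 4 rises and 4 falls among 26 ion channel subunits, and 2 rises and 4 falls among 14 G protein-coupled receptors. Without β-alanine library 1, 8 members rose and 10 fell. Falls numbered 4 without β-alanine library 2, 5 without β-alanine library 3 and 3 without control library 2.

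**Figure D2:**
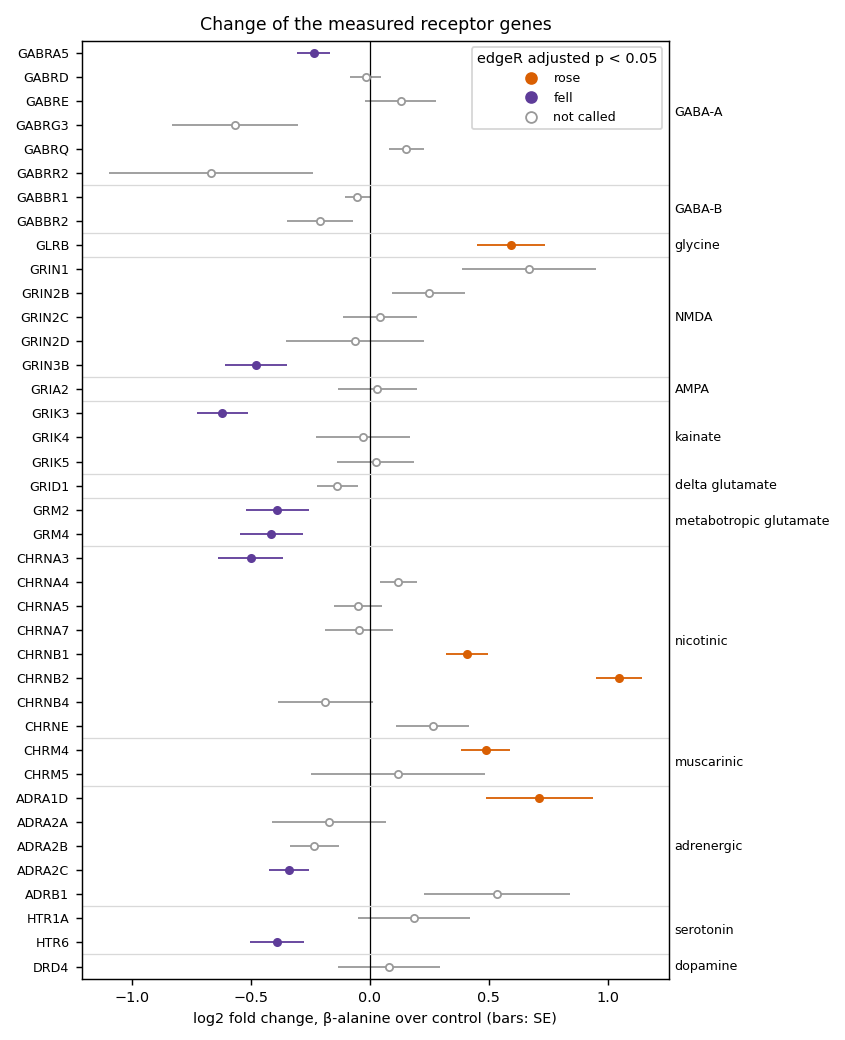
Log2 fold change of β-alanine over control for 39 measured receptor genes, each with its standard error, grouped by family. Filled points are genes called by edgeR (adjusted p below 0.05), 5 above 0 and 8 below 0, and open points are genes not called.

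The largest change among the measured receptors was in a gene of the nicotinic family, cation channels opened by acetylcholine. CHRNB2, the beta subunit of the main brain nicotinic receptor, had 19.5, 25.2 and 26.01 CPM in β-alanine libraries and 11.5, 11.1 and 12.1 CPM in control libraries. All β-alanine libraries lay above all controls, with library 1 the lowest of them. The rise was 1.05 ± 0.10 (SE) on the log2 scale, with an edgeR adjusted p of 2.51e-07, and was the only one among the 40 of at least 1. CHRNB1, the beta subunit of the muscle receptor, had 14.1, 14.8 and 16.2 CPM in β-alanine and 11.7, 11.1 and 11.4 CPM in control libraries. It rose by 0.41 ± 0.09 (edgeR adjusted p = 0.00141), again without overlap of the groups. Annotated exons of CHRNB2 overlap those of a gene on the other strand, and the use of strand in counting is not stated. Those of CHRNB1 overlap a gene on the same strand. The counts of both are therefore uncertain. Exon overlap on either strand also makes uncertain the counts of CHRNA3, CHRNA4, CHRNA5, CHRNB4, CHRNE, GABBR1, GABBR2, GABRE, GABRG3, GRID1, GRIN1, GRIN2B and GRIN3B. Below the filter it does so for CHRNA10, CHRM3 and GLRA4.

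CHRNA3, the alpha subunit of ganglionic nicotinic receptors, fell. It had 8.56, 6.35 and 5.57 CPM in β-alanine and 8.65, 10.5 and 8.67 CPM in control libraries. β-alanine library 1 was just below the lowest control. The change was -0.50 ± 0.14 (edgeR adjusted p = 0.00883), and the adjusted p was 0.0557 without β-alanine library 2, 0.0726 without β-alanine library 3 and 0.0939 without control library 2. CHRNA3 lies in a cluster with CHRNA5 and CHRNB4 on chromosome 15 from 78565520 to 78727754 (GRCh38), and exons at its 3′ end overlap those of CHRNA5 on the other strand, so their counts are uncertain. CHRNA5, an accessory subunit, averaged 13.0 ± 0.778 CPM in β-alanine and 13.4 ± 1.99 CPM in control libraries (SD, n = 3 each), a change of -0.05 ± 0.10. CHRNB4 averaged 2.14 ± 0.519 and 2.34 ± 0.251 CPM, a change of -0.19 ± 0.20. Neither passed the test (edgeR adjusted p = 0.752 and 0.53).

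CHRNA4, which joins CHRNB2 in the same receptor, had 23.8, 21.4 and 22.4 CPM in β-alanine and 18.7, 22.2 and 20.9 CPM in control libraries. The groups overlapped, and the change of 0.12 ± 0.08 did not pass the test (edgeR adjusted p = 0.269). The ratio of CHRNB2 to CHRNA4 counts within a library, both uncertain through exon overlap, was 0.819, 1.18 and 1.16 in β-alanine and 0.616, 0.502 and 0.582 in control libraries. This pair was chosen after its values were seen, so the separation is a description. CHRNE, the adult muscle subunit, changed by 0.26 ± 0.155 and CHRNA7, which forms channels of a single subunit type, by -0.05 ± 0.14, and neither was called. CHRNA7 shares sequence with the fusion gene CHRFAM7A, so its count is uncertain. As summed CPM, the 16 nicotinic genes stood at 90.6 to 94.2 in β-alanine and 76.2 to 77.3 in control libraries. CHRNB2, with means of 23.6 and 11.6 CPM, made up most of that difference.

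Among GABA-A receptor genes, 1 rose and 1 fell. In the cluster on chromosome 4, GABRG1, GABRA2 and GABRB1 held 20 counts in all and none was measured, while GABRA4 had no row. On chromosome X, GABRE and GABRQ were measured, while GABRA3 between them had 13 counts. GABRA5, an alpha subunit of extrasynaptic receptors, had 21.7, 20.8 and 21.4 CPM in β-alanine and 24.2, 25.2 and 25.7 CPM in control libraries. It fell by 0.24 ± 0.07 with no overlap (edgeR adjusted p = 0.0125), and the adjusted p lay between 0.0522 and 0.0672 without β-alanine library 2, control library 2 or control library 3.

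GABRD had 51.4, 45.4 and 41.8 CPM in β-alanine and 46.8, 46.8 and 45.3 CPM in control libraries. The β-alanine libraries lay on both sides of the controls, and the change of -0.02 ± 0.06 was not called (edgeR adjusted p = 0.867). GABRQ, the theta subunit, had 22.1, 23.8 and 24.99 CPM in β-alanine and 22.5, 20.1 and 21.7 CPM in control libraries, a change of 0.15 ± 0.07 (edgeR adjusted p = 0.131). GABRG3, a gamma subunit, averaged 1.07 ± 0.385 and 1.495 ± 0.147 CPM (SD, n = 3 each), a change of -0.57 ± 0.26 with an edgeR adjusted p of 0.115. Leaving out β-alanine library 1 brought GABRQ (edgeR adjusted p = 0.0359) and GABRG3 (0.0279) past the threshold. GABRE changed by 0.13 ± 0.15 and GABRR2, a rho subunit, by -0.67 ± 0.43, and neither was called.

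The GABA-B receptor, a G protein-coupled dimer, showed no called change. GABBR1 had 70.6, 69.9 and 70.8 CPM in β-alanine and 69.6, 69.6 and 80.0 CPM in control libraries. Control library 3 stood above the other libraries, and the change was -0.05 ± 0.05 (edgeR adjusted p = 0.508). GABBR2 changed by -0.21 ± 0.14 (edgeR adjusted p = 0.278), and by -0.35 with an edgeR adjusted p of 0.0316 without β-alanine library 1.

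Transcripts of MRGPRD and of the glycine receptor alpha subunits GLRA2, GLRA3 and GLRA4, on which β-alanine acts directly, were close to 0. GLRA1 had no row in the count table, so its level is not known here. MRGPRD had 1, 2 and 1 counts in β-alanine libraries and 1, 2 and 2 counts in control libraries. The pooled levels were 0.0532 CPM (95% exact Poisson interval 0.0145 to 0.136) and 0.0832 CPM (0.0270 to 0.194), and at this depth they could not be told apart. The alpha subunits analysed here were as low, with GLRA2 at 1 count, GLRA3 at 11 and GLRA4 at 4 over the 6 libraries. GLRB, the subunit that anchors glycine receptors to the scaffold protein gephyrin, was measured and rose. It had 6.47, 7.40 and 7.10 CPM in β-alanine and 6.00, 4.18 and 3.93 CPM in control libraries. Control library 1 was close to the lowest β-alanine library, and the rise was 0.59 ± 0.14 (edgeR adjusted p = 0.00366).

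Among ionotropic glutamate receptors, GRIN2B, an NMDA subunit that carries the glutamate site, had the most counts. Per kb it stood at 3.83 CPM in β-alanine and 3.24 CPM in control libraries, beside 2.43 and 2.63 for GRID1 and 1.75 and 2.61 for GRIK3. It had 107, 116 and 133 CPM in β-alanine and 88.1, 93.7 and 119 CPM in control libraries. Control library 3 overlapped the β-alanine libraries, and the change of 0.25 ± 0.15 was not called (edgeR adjusted p = 0.318). Without control library 3 the change was 0.38 (edgeR adjusted p = 0.00524). At about the same size of change as with all libraries, GRIN2B was called by limma-voom (adjusted p = 0.0284), by edgeR without robust shrinkage (adjusted p = 0.0414) and by edgeR with the replicate number as a block (adjusted p = 0.000185). GRIN1 averaged 1.21 ± 0.395 CPM in β-alanine and 0.799 ± 0.0775 CPM in control libraries (SD, n = 3 each), a change of 0.67 ± 0.28 with an edgeR adjusted p of 0.0819, and of 0.0197 without β-alanine library 1. GRIN2C and GRIN2D changed by 0.04 ± 0.16 and -0.06 ± 0.29 and were not called.

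GRIN3B, an NMDA subunit that responds to glycine, had 4.04, 3.98 and 4.05 CPM in β-alanine and 5.30, 5.55 and 5.97 CPM in control libraries. It fell by 0.48 ± 0.13 without overlap (edgeR adjusted p = 0.00836). Its exons overlap those of TMEM259 on the other strand, a gene with 109 CPM in β-alanine and 120.5 CPM in control libraries that itself changed by -0.14 ± 0.05, so the count of GRIN3B is uncertain. GRIK3, a kainate receptor subunit, showed the largest fall that was called. It had 22.0, 15.5 and 15.5 CPM in β-alanine and 25.95, 25.9 and 27.2 CPM in control libraries, with library 1 between the other β-alanine libraries and the controls. The change was -0.62 ± 0.11 (edgeR adjusted p = 0.000586). The other kainate subunits GRIK4 and GRIK5 changed by -0.03 ± 0.20 and 0.02 ± 0.16, the AMPA subunit GRIA2 by 0.03 ± 0.17 and the delta receptor GRID1 by -0.14 ± 0.09, all without a call.

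Both measured metabotropic glutamate receptors, GRM2 and GRM4, which inhibit adenylyl cyclase, fell. GRM2 had 7.87, 5.73 and 5.36 CPM in β-alanine and 7.95, 8.64 and 7.34 CPM in control libraries. β-alanine library 1 lay within the control range. The change was -0.39 ± 0.13 (edgeR adjusted p = 0.0313), and the adjusted p lay between 0.073 and 0.188 without β-alanine library 2, β-alanine library 3, control library 1 or control library 2. GRM4 had 4.53, 4.74 and 4.17 CPM in β-alanine and 5.35, 6.55 and 5.86 CPM in control libraries, without overlap. It fell by 0.41 ± 0.13 (edgeR adjusted p = 0.0224), and the adjusted p was 0.117 without β-alanine library 3, 0.137 without control library 2 and 0.05 without control library 3. DESeq2's Wald test called neither gene (adjusted p = 0.0762 for GRM2 and 0.0649 for GRM4).

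Among the remaining G protein-coupled receptors, CHRM4, a muscarinic acetylcholine receptor that inhibits adenylyl cyclase, rose. It had 12.6, 11.7 and 12.8 CPM in β-alanine and 9.73, 9.14 and 7.60 CPM in control libraries, a change of 0.49 ± 0.10 with no overlap (edgeR adjusted p = 0.00116). CHRM5 averaged 0.507 and 0.470 CPM and was not called. HTR6, a serotonin receptor that stimulates adenylyl cyclase, had 7.45, 6.57 and 6.80 CPM in β-alanine and 10.1, 8.82 and 8.21 CPM in control libraries. It fell by 0.39 ± 0.11 (edgeR adjusted p = 0.0117), with an adjusted p of 0.0684 without β-alanine library 2 and 0.0811 without control library 1. HTR1A changed by 0.19 ± 0.24 and the dopamine receptor DRD4 by 0.08 ± 0.21, and neither was called.

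Of 5 measured adrenergic receptors 1 rose, 1 fell and 3 were not called. ADRA2C had 18.6, 16.7 and 15.5 CPM in β-alanine and 21.2, 22.7 and 19.5 CPM in control libraries, and fell by 0.34 ± 0.08 without overlap (edgeR adjusted p = 0.0041, and 0.0518 without control library 2). ADRA2B, a receptor of the same subfamily, was also lower in 3 of 3 libraries, at 8.17 ± 0.631 CPM in β-alanine and 9.74 ± 0.64 CPM in control libraries (SD, n = 3 each), but its change of -0.23 ± 0.10 did not pass the test (edgeR adjusted p = 0.0974). ADRA1D, a receptor coupled to phospholipase C, had 1.88, 1.90 and 1.68 CPM in β-alanine and 1.03, 1.09 and 1.17 CPM in control libraries. It rose by 0.71 ± 0.22 (edgeR adjusted p = 0.0206), and the adjusted p lay between 0.066 and 0.0811 without β-alanine library 2, control library 1 or control library 2. ADRA2A changed by -0.17 ± 0.24 and ADRB1 by 0.53 ± 0.31, and neither was called.

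Position in each library showed how the 14 called genes spread. Relative to the control mean on the log2 scale, the 6 that rose had medians of 0.50, 0.55 and 0.58 in β-alanine libraries 1, 2 and 3. The 8 that fell had medians of -0.23, -0.46 and -0.49. By these medians library 1 lay closer to the controls, more so for the falls, with GRM2, CHRNA3 and GRIK3 at -0.02, -0.11 and -0.26 there. This did not hold for every fall. GRM4 was at -0.38 in library 1 and -0.32 in library 2, and GRIN3B at -0.47, -0.49 and -0.47 in libraries 1, 2 and 3.

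**Figure D3:**
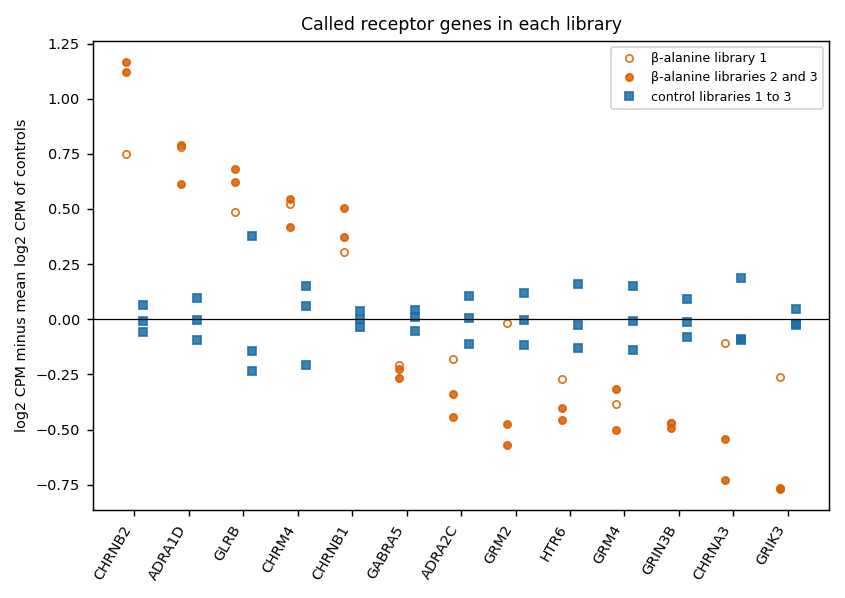
Log2 CPM of 13 called receptor genes in each library minus the mean of the controls, ordered by fold change. Open circles are β-alanine library 1, filled circles β-alanine libraries 2 and 3, and squares the controls; of those shown, only GRM2 had a β-alanine library inside the control range.

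Below the filter, the 5 genes with the most counts were DRD2 (73 counts over 6 libraries), CHRM3 (56), CHRNA10 (48), and GABRR1 and GRIN2A (43 each). CHRNA10, which pairs with CHRNA9 in hair cells, had 8, 10 and 17 counts in β-alanine and 4, 5 and 4 counts in control libraries, or 0.466 CPM (95% exact Poisson interval 0.324 to 0.648) and 0.216 CPM (0.115 to 0.370) when pooled. GABRR1, a rho subunit, had pooled levels of 0.412 CPM (0.280 to 0.585) and 0.200 CPM (0.103 to 0.349). With a lower filter CHRNA10 and GABRR1 changed by 1.09 ± 0.46 and 1.02 ± 0.49 and did not pass (edgeR adjusted p = 0.0907 and 0.138). DRD2, a dopamine receptor, had pooled levels of 0.639 and 0.416 CPM, and CHRM3, a muscarinic receptor, 0.306 and 0.549 CPM. GRIN2A stood at 0.239 and 0.416 CPM. With the lower filter, DRD2, CHRM3 and GRIN2A did not pass either (edgeR adjusted p = 0.256, 0.168 and 0.278).

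Promoter sequence was compared between measured and unmeasured receptors, since vertebrate promoters divide into those rich and those poor in CpG dinucleotides. RefSeq windows (GRCh38.p14) of 250 bases before to 50 bases after each start were given for 69 of the 97 genes. The ratio of observed to expected CpG had a median of 0.765 over 30 measured receptors (range 0.202 to 1.08) and 0.514 over 39 that were trace or without counts (0.0442 to 1.06), against 0.563 over all genes with a window. A ratio of at least 0.6 was found in 73.3% of the measured and 38.5% of the others. The ranges overlapped widely, no test was made, and GRM4 was measured with a ratio of 0.248. The windows below show CHRNB2 and CHRNA3, nicotinic subunits that rose and fell, GRIK3, the largest called fall, and the β-alanine receptor MRGPRD, with CpG dinucleotides in capitals. They lie at chr1:154567528-154567827 on the plus strand (CHRNB2), chr15:78620947-78621246 on the minus strand (CHRNA3), chr1:37034466-37034765 on the minus strand (GRIK3) and chr11:68980937-68981236 on the minus strand (MRGPRD), each written 5′ to 3′.
CHRNB2: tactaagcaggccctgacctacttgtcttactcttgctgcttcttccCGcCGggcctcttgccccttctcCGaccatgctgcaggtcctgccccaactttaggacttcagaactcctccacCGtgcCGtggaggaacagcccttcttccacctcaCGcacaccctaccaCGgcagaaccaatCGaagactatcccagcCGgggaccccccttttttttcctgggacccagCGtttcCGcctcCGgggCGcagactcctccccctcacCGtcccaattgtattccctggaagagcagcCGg
CHRNA3: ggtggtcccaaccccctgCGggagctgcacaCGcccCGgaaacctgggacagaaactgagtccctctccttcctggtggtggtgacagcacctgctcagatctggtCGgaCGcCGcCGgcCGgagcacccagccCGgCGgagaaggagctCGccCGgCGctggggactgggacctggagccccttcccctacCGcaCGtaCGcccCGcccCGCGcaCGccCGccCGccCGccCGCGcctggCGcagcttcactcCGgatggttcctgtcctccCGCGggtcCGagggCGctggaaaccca
GRIK3: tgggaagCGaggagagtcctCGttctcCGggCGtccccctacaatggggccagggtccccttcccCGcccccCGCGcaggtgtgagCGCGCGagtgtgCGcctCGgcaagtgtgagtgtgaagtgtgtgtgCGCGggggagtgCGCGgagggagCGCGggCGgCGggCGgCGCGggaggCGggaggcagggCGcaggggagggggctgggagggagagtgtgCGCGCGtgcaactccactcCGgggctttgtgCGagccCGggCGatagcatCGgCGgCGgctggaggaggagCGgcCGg
MRGPRD: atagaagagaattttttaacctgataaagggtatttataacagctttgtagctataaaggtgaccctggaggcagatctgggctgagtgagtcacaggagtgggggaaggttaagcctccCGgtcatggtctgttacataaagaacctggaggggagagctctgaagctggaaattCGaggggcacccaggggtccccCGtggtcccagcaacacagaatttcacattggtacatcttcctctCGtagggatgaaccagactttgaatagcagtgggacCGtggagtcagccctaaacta
They held 15, 31, 37 and 5 CpG dinucleotides in that order.

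**Figure D4:**
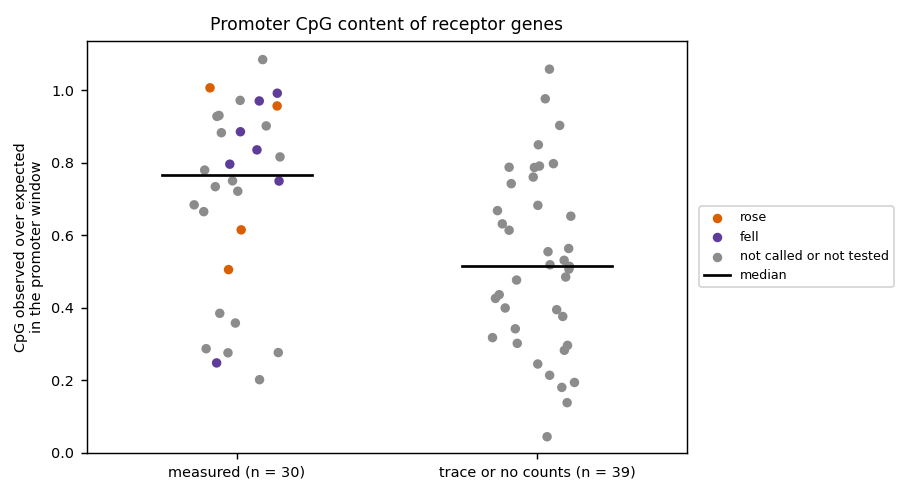
Ratio of observed to expected CpG in the promoter window of each receptor gene with a RefSeq window, for 30 measured genes and 39 trace genes or genes without counts; black lines are medians. The measured genes centre higher (0.765 against 0.514), with overlapping ranges, and the coloured genes that rose or fell are spread through the measured range.

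The same windows were searched on both strands for binding motifs, as a description of these letters. The cAMP response element TGACGTCA, the AP-1 motif TGACTCA, the NR4A response element AAAGGTCA and the EGR motif GCGTGGGCG were in no window of the 11 called genes that had one. Among the other receptors, the cAMP response element was in the window of GABBR1, and the AP-1 motif in those of MRGPRD (as tgagtca, its reverse complement), GABRA6, GABRR3 and GRM6. Over all 35116 windows these motifs were found in 1.85%, 4.95%, 1.22% and 0.795%. TTCAGCACC, the left arm of the RE1 element read by the neuronal repressor REST, was in the windows of GRM2 and GRIA2 and in 0.376% of all windows. The E-box CAGCTG was in those of ADRA2C, GLRB and HTR6 among the called genes and in 17.9% of all windows. No motif searched contains another.

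Genes that make, move or anchor these receptors were read from 8 lists, whose shares of called genes stand beside the 27.9% of all genes tested. Of 11 measured genes for GABA and glycine handling, 18.2% were called, 1 up and 1 down, SHMT2 (0.31 ± 0.04) and SHMT1 (-0.23 ± 0.05), which interconvert serine and glycine in mitochondria and cytosol. The GABA-synthesis gene GAD1 was not measured, with 14 counts. Among 18 partners of GABA-A, glycine and GABA-B receptors, 4 rose and 3 fell (38.9%). GABARAPL1 and GABARAP, which bind GABA-A receptors and also serve in autophagy, rose by 0.54 ± 0.05 and 0.50 ± 0.09. TRAK1, a kinesin adaptor, changed by -0.28 ± 0.05. Annotated exons of SHMT1, SHMT2, GABARAP and GABARAPL1 overlap those of other genes, so their counts are uncertain.

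Of 34 partners of ionotropic glutamate receptors, 4 rose and 7 fell (32.4%). CACNG4, an auxiliary subunit of AMPA receptors, had 3.97, 4.19 and 3.99 CPM in β-alanine and 9.14, 7.55 and 8.36 CPM in control libraries. The groups lay well apart, with a change of -1.04 ± 0.13 (edgeR adjusted p = 3.74e-06). Annotated exons of CACNG4 overlap those of a gene on the other strand, so its count is uncertain. FRRS1L, an assembly factor of AMPA receptors, and HOMER1, a postsynaptic scaffold, rose by 0.41 ± 0.06 and 0.37 ± 0.07, and SHANK3 changed by -0.24 ± 0.06. Among 9 genes of glutamate handling 2 rose, the cystine-glutamate exchanger SLC7A11 (0.29 ± 0.07) among them, and 1 fell, the serine racemase SRR (-0.20 ± 0.07), which was 33.3% called.

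None of 5 measured acetylcholine handling genes was called. Of 10 nicotinic receptor partners 1 rose and 3 fell (40%), with LYPD6 at -0.46 ± 0.12, LY6E at -0.22 ± 0.06, LRP4 at -0.19 ± 0.06 and UBXN2A at 0.17 ± 0.06. Monoamine handling had 4 rises and 2 falls among 8 measured genes (75%). QDPR, which recycles the cofactor tetrahydrobiopterin, had 21.2, 19.6 and 18.7 CPM in β-alanine and 27.5, 33.2 and 31.0 CPM in control libraries, a change of -0.64 ± 0.08 (edgeR adjusted p = 3.51e-06). GCH1 and PTS, which make that cofactor, rose by 0.73 ± 0.13 and 0.31 ± 0.08. Of 22 G protein subunits and desensitisation genes 2 rose and 5 fell (31.8%), among them GNA13 (0.16 ± 0.04), GNAI2 (-0.23 ± 0.05), GNA11 (-0.24 ± 0.06) and GNAS (-0.14 ± 0.04). List medians lay between -0.17 and 0.07 on the log2 scale, beside -0.0032 over all genes tested. The calls of SHANK3, SLC7A11, SRR, LY6E, LRP4, UBXN2A, PTS, GNA11 and GNAS were each lost in edgeR's test without at least 1 of the libraries, with adjusted p between 0.0501 and 0.186.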

How the data were processed

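Polyadenylated RNA of DMS114 cells was sequenced in 3 β-alanine and 3 control libraries, grouped and numbered by their titles. The values deposited by the authors are raw gene counts. Software listed in the submitters' processing notes comprises featureCounts 2.0.1, STAR 2.7.3a, Trimmomatic 0.39, DESeq2 and bcl2fastq, with GRCh38 as genome build. How strand was used and which annotation was counted are not stated in the sources used here. Per the labels' protocols, libraries came from a TruSeq RNA kit.

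Genes were filtered with filterByExpr (minimum count 10, minimum total 15), leaving 17331 of 36458, scaled by TMM and tested in edgeR 4.0.16 (R 4.3.3) by quasi-likelihood with robust shrinkage, two-sided, no covariate, Benjamini-Hochberg over all tested genes, threshold 0.05. Only receptor and listed genes are printed. Each fold change is log2 (β-alanine over control), and the SE is the fold change over the root of F. The step was tested on made-up counts (17131 genes) with the same means and totals. Every gene was given the same dispersion (0.00189), and no library was set apart. There it recovered 48.8% of 41 genes changed 1.25-fold and 93.9% of 49 changed 2-fold, with 3 false among 163 calls. Recovery and false calls in the real data may differ from these.

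Exon lengths, positions and overlaps came from GENCODE release 29 (GRCh38), which held all 97 members. Measured members were to be named in full, and some genes are not reported here, though counts over members and lists include them. Values in each library were given for called members, the 10 highest in CPM and the receptors of β-alanine, and from each list up to 4 called genes with the smallest p. The receptor families were taken up as a topic, and the lists written, with earlier results of these data known, while membership follows from gene symbols alone. Alternatives were other scalings, filters and tests (DESeq2 1.42.0, limma-voom in limma 3.58.1), no robust shrinkage, a replicate block, thinning to the smallest library and leaving out each library. Figures used matplotlib 3.10.9 in Python 3.11.15.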

Additional observations from a re-analysis of the deposited data

How the results depend on the processing

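The number of called members was 6 rises and 8 falls under RLE scaling, library totals and each low-count filter. It was 5 and 6 with DESeq2, 7 and 8 with limma-voom or no robust shrinkage, and 5 and 4 after thinning every library to the smallest total; the falls lost there were CHRNA3, GABRA5, GRM2 and GRM4. Leaving out 1 library in turn gave 5 to 8 rises and 3 to 10 falls, against 1501 to 3204 rises and 1473 to 3294 falls over all genes. The members' median log2 change was -0.049 after thinning and -0.038 to 0.0040 with a library left out. Receptor genes passing the filter numbered 91 with no filter beyond 1 count.

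CHRNB2, CHRNB1, CHRM4, GLRB, GRIK3 and GRIN3B were called in all 16 refits, and no called receptor gene changed sign in any of them. Across 623 refits of the 40 measured receptors (a gene has none where a filter removed it or DESeq2 gave no adjusted p, as for ADRA1D), 573 kept direction and call, 26 lost the call, 8 gained one and 16 changed sign. The sign changes were in uncalled genes near 0. GRIA2 was -0.0064 with the replicate block and -0.055 after thinning, and GRIK4 was 0.020 with limma-voom. With 1 library left out, log2 changes ranged from -0.12 to 0.074 for CHRNA5, -0.16 to 0.017 for CHRNA7, -0.021 to 0.20 for DRD4, -0.088 to 0.013 for GABBR1, -0.093 to 0.051 for GABRD, -0.19 to 0.13 for GRIA2, -0.25 to 0.20 for GRIK4, -0.070 to 0.099 for GRIK5, -0.0016 to 0.11 for GRIN2C and -0.36 to 0.16 for GRIN2D. The cause was not tested.

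The samples share only a replicate number: same-numbered libraries correlated at 0.0496, 0.00365 and 0.0716 in their deviations from the group means. A replicate block gave 7 rises and 8 falls, with GRIN2B called (0.24, edgeR adjusted p = 0.000185). Low depth limits the 51 trace receptors, for which no test was made in the filtered table.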
